A study of Mus musculus with 12 samples.

Results

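A set of 10 long non-coding RNAs of the nucleus and of neurons were followed in the mouse striatum: Malat1, Neat1, Miat, Snhg11, Rmst, Pantr1, Mir124a-1hg, Mir124-2hg, Mir9-3hg and Tunar. They were taken by name from the count table, 10 of its 57132 features, and were chosen by the measured log2 fold change of several of them between the genotypes, so that difference is described here and not tested. The study compared 6 knockout mice that lack TAAR5, a trace amine-associated receptor (TAAR5-KO), with 6 wild-type (WT) littermates on the C57Bl/6 background, all 10 months old and of both sexes. The striatum was cut from a coronal brain slice after the cortex was removed. Libraries NK1 to NK6 carry the label TAAR5-KO and NK7 to NK12 the label WT, without a link to single animals or their sex. GEO's label of the molecule is polyA RNA, whereas the protocol describes total RNA depleted of ribosomal RNA.

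Long non-coding RNAs are transcripts without a long reading frame, and many of them stay in the nucleus. Malat1 gathers at nuclear speckles, where splicing factors are stored, and Neat1 is the scaffold of paraspeckles, nuclear bodies that hold RNA-binding proteins. Miat forms nuclear spots in neurons and binds splicing regulators. Others are host transcripts, from which small RNAs are cut: Snhg11 carries small nucleolar RNAs, which guide the modification of other RNAs, and the Mir124 and Mir9 hosts carry microRNAs that are abundant in neurons. Rmst acts with the transcription factor Sox2 in neurogenesis, Pantr1 is a brain transcript next to Pou3f3, and Tunar is a neural transcript that has since been found to code for a small protein. The annotation release used here, GENCODE M39, puts 9 of the members in the lncRNA class and Tunar in the protein-coding class.

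The small RNAs that these hosts carry are shown because they are what the host transcripts are known for. Snhg11 held a small nucleolar RNA in an exon, Gm25187 (GRCm39 chr2:158220142-158220274, plus strand), and another in an intron, Gm25129 (chr2:158221454-158221586, plus strand). Both have 133 bases, and they were identical at 68.4% of the aligned positions. The capitals mark the ACA box that ends both.
Gm25187: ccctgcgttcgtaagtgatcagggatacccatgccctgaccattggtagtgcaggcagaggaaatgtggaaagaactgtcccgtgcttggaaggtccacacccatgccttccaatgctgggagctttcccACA
Gm25129: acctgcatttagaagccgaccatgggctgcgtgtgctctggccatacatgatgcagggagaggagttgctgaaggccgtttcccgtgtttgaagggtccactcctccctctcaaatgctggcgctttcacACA
Over the 12 libraries Gm25187 had 0 counts as a feature of its own and Gm25129 had 27, beside 14182 for Snhg11.

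Inside the members lie 6 microRNA genes, and mature sequences from RefSeq were used for 3 of them. Mir9-3hg carries Mir9-3, and Rmst carries Mir135a-2 and Mir1251 in introns. Mir124a-1hg carries Mir124a-1 and Mir3078, and Mir124-2hg carries Mir124a-2. The main strands are shown with the seed, the bases 2 to 8 that pair with targets, in capitals.
mmu-miR-9-5p: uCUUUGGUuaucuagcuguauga
mmu-miR-9-3p: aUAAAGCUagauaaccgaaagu
mmu-miR-135a-5p: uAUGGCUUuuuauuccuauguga
mmu-miR-1251-5p: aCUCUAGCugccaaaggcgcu
None of these seeds is shared. The libraries did not measure mature microRNAs: Mir135a-2 had 3 counts in all and the other 5 microRNA genes had 0, which leaves the hosts as the only readout.

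Total counts ran from 11269915 to 34824450 per library, but between 1819907 and 6399188 remained outside ribosomal RNA, whose features held 82.1% ± 6.29 of all counts under the label TAAR5-KO and 76.9% ± 9.96 under the label WT (SD, n = 6 each). Ribosomal RNA took 85% or more of the counts in NK1, NK2, NK3, NK9 and NK10, a limit set after seeing the data. Of these NK10 was lowest, at 85.6%, and the other libraries ran from 64.3% (NK7) to 81.9% (NK4). Taar5, the deleted gene, had 1 to 6 counts in every library labelled TAAR5-KO (16 in all), and 0 to 2 in those labelled WT (3 in all). These counts are few, and Taar5 did not reach the level at which features were tested. They go against the labels, for a reason that was not tested, so libraries are called by their labels throughout and every direction follows the labels. Markers of spiny neurons, the main neurons of the striatum, were all present: Drd1, a dopamine receptor, was at 16.1 ± 2.50 CPM (counts per M of library size; SD, n = 6) against 12.0 ± 2.80 in libraries labelled TAAR5-KO and WT. CPM are given after TMM normalization (a trimmed mean of log ratios, from edgeR), and a feature was called at an adjusted p under 0.1 in edgeR's likelihood ratio test. When only library size was used for scaling, all features had a median log2 fold change of −0.49, so fold changes are relative to the TMM scale.

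Of the 10 members, 3 passed the threshold with a higher level in libraries labelled TAAR5-KO (Malat1, Snhg11 and Mir124a-1hg) and 1 with a lower level (Tunar). Neat1, Miat, Rmst, Pantr1, Mir124-2hg and Mir9-3hg did not pass. Of all 13902 features tested, 1.65% were called, 0.957% higher and 0.691% lower, which is background and not a test, since the members were chosen with this contrast known. The quasi-likelihood test of edgeR called Malat1, Snhg11 and Mir124a-1hg (0.453% of all features in either direction and 0.309% higher), as did DESeq2 (1.27% and 0.734%). DESeq2 gave no adjusted p for 7009 features, among them Rmst, Mir9-3hg and Tunar, and of the 6893 with a value it called 2.57% in either direction and 1.48% higher. In this bulk tissue, fewer cells of a type and less RNA per cell cannot be told apart. All 10 members passed the filter on low values. The log2 fold change was above 0 for 8 of the 10 members and for 48.9% of all features, and its median was 0.21 over the members against −0.01 over all features.

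**Figure D1:**
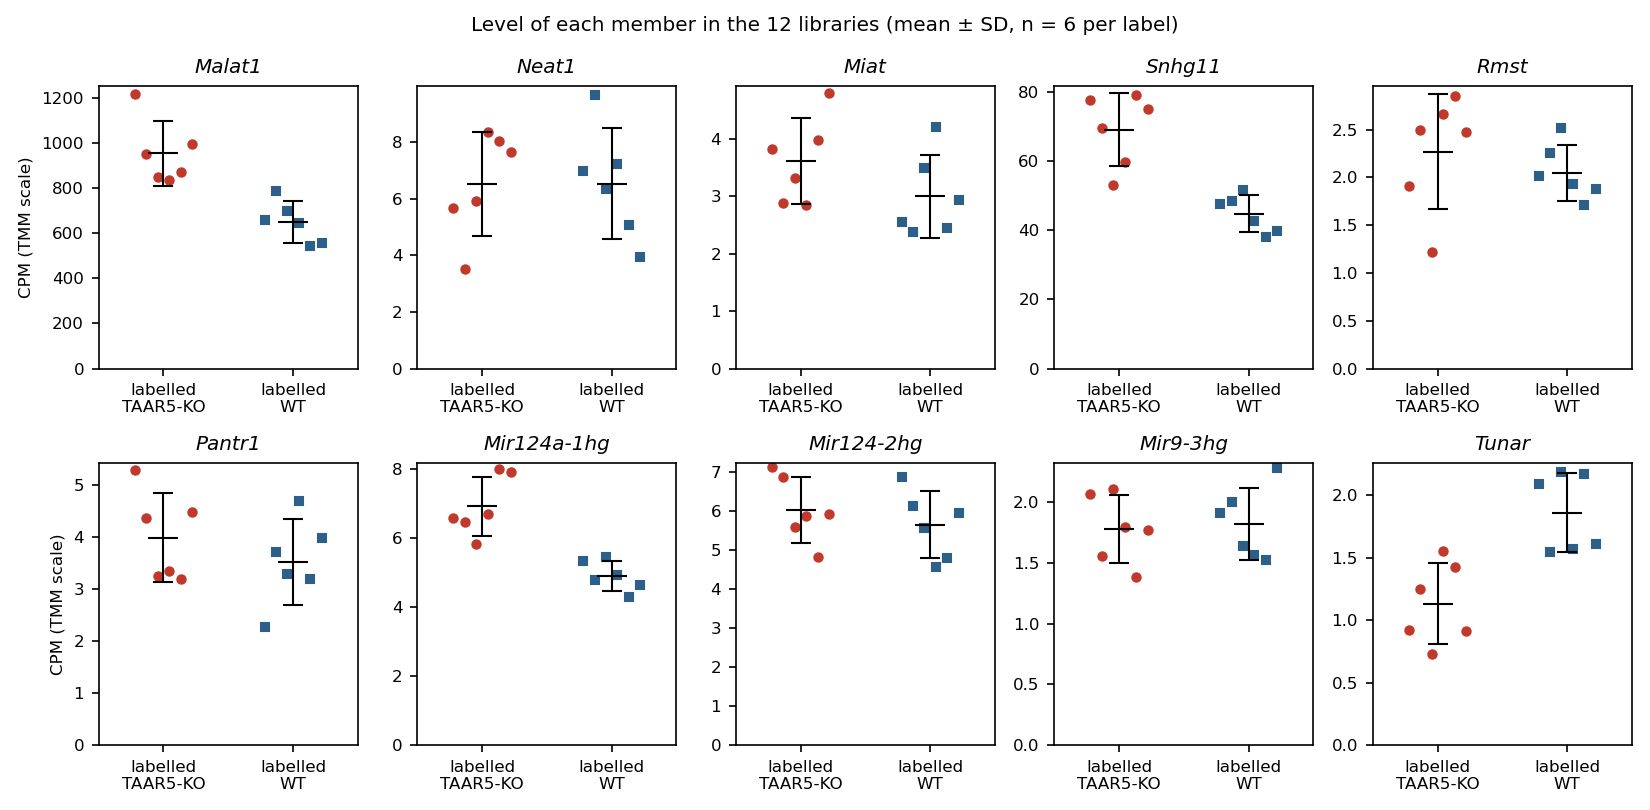
Level of each of the 10 members in the 12 libraries, in CPM on the TMM scale, by label; points are libraries and the bars give the mean ± SD (n = 6 per label). For Malat1, Snhg11 and Mir124a-1hg every library labelled TAAR5-KO lies above every library labelled WT, and for Tunar the labels meet only at NK4 (1.55 CPM) and NK8 (1.54 CPM).

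Malat1 (ENSMUSG00000092341.6, GRCm39 chr19:5845717-5852706, minus strand) is a single unspliced transcript of 6990 bases. Its CPM in libraries labelled TAAR5-KO was 837 at the lowest, 911 at the median and 1218 at the highest. Libraries labelled WT ran from 544 over 652 to 788. The ranges did not overlap, as for 1.01% of all features (0.626% higher and 0.388% lower). The mean was 954 ± 144 CPM (SD, n = 6) against 648 ± 91.8, a log2 fold change of 0.56 (SE 0.13) on counts of 5352 to 38139 per library. Malat1 had the second-highest CPM of the lncRNA class and rank 18 of all features tested. It took 0.484% ± 0.148 of the counts outside ribosomal RNA in libraries labelled TAAR5-KO and 0.367% ± 0.0801 in those labelled WT (SD, n = 6). Of those counts the gene Lars2 alone held from 4.43% (NK7) to 30.0% (NK1), so shares on this scale also move with Lars2.

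Neat1 (ENSMUSG00000092274.5, chr19:5874736-5895898, minus strand) is the neighbour of Malat1 on the same strand. Libraries labelled TAAR5-KO ran from 3.51 over 6.79 to 8.36 CPM, and those labelled WT from 3.93 over 6.67 to 9.69. The mean was 6.53 ± 1.86 CPM (SD, n = 6) against 6.54 ± 1.98, a log2 fold change of 0.02 (SE 0.21). The labels overlapped over nearly their whole range, and the coefficient of variation was 28.4% and 30.2%.

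Miat (ENSMUSG00000097767.10, chr5:112361094-112377261, minus strand) ran from 2.85 over 3.58 to 4.80 CPM in libraries labelled TAAR5-KO and from 2.38 over 2.75 to 4.21 in those labelled WT. With a log2 fold change of 0.36 (SE 0.17), it did not pass the threshold. NK9 and NK10 were the highest libraries labelled WT. An antisense gene covers 23.3% of its exon bases, and the strand setting of the counting is not stated, so part of its counts may belong to that gene.

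Snhg11 (ENSMUSG00000044349.17, chr2:158217558-158228071, plus strand) was the second most abundant member. In libraries labelled TAAR5-KO it ran from 52.9 over 72.2 to 79.1 CPM, and in those labelled WT from 38.1 over 45.2 to 51.5. The ranges did not overlap, although NK3 (52.9 CPM) came close to NK9 (51.5 CPM). Its mean was 69.0 ± 10.6 CPM (SD, n = 6) against 44.7 ± 5.30, with a log2 fold change of 0.63 (SE 0.12), the largest increase among the members.

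Mir124a-1hg (ENSMUSG00000097545.9, chr14:64824744-64831410, plus strand) hosts miR-124, an abundant microRNA of neurons. It ran from 5.84 over 6.64 to 8.01 CPM in libraries labelled TAAR5-KO and from 4.29 over 4.87 to 5.47 in those labelled WT. NK5 and NK6 were the highest, and again the labels did not overlap. The mean was 6.92 ± 0.865 CPM (SD, n = 6) against 4.91 ± 0.438, a log2 fold change of 0.54 (SE 0.11) on 41 to 304 counts per library.

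Mir124-2hg (ENSMUSG00000100252.8, chr3:17843892-17863134, plus strand), the other host of miR-124 among the members, did not pass the threshold. It ran from 4.82 over 5.90 to 7.12 CPM and from 4.58 over 5.76 to 6.88, under the labels TAAR5-KO and WT. The log2 fold change was 0.05 (SE 0.13), beside 0.54 for Mir124a-1hg, and the difference between the hosts was not tested. Mir9-3hg (ENSMUSG00000097023.10, chr7:79148856-79184151, plus strand), a host of miR-9, ran from 1.38 over 1.79 to 2.11 CPM and from 1.52 over 1.77 to 2.28. It had a log2 fold change of −0.12 (SE 0.17) and did not pass.

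Rmst (ENSMUSG00000112117.4, chr10:91906899-92001132, minus strand) ran from 1.22 over 2.49 to 2.85 CPM in libraries labelled TAAR5-KO and from 1.71 over 1.97 to 2.52 in those labelled WT. NK3 was below all other libraries. A log2 fold change of 0.21 (SE 0.17) resulted, and other features of the same strand cover 11.1% of its exon bases. Pantr1 (ENSMUSG00000060424.16, chr1:42629754-42734584, minus strand) ran from 3.19 over 3.86 to 5.28 CPM and from 2.27 over 3.50 to 4.70, with a log2 fold change of 0.20 (SE 0.17). Neither passed the threshold, and the labels overlapped for both.

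Tunar (ENSMUSG00000097929.10, chr12:105300129-105350191, plus strand) was the only member called lower. Libraries labelled TAAR5-KO ran from 0.729 over 1.08 to 1.55 CPM, and those labelled WT from 1.54 over 1.85 to 2.19. The mean was 1.13 ± 0.325 CPM (SD, n = 6) against 1.86 ± 0.318, a log2 fold change of −0.70 (SE 0.20). It rested on 9 to 71 counts per library, the smallest counts of the members. The call was lost when NK1, NK2, NK3, NK6, NK7 or NK11 was left out, with log2 fold changes of −0.72 to −0.60. The quasi-likelihood test did not call Tunar, and DESeq2 gave it no adjusted p. Malat1, Snhg11 and Mir124a-1hg were called in all 12 fits that left out a library, and by both other tools. In the quasi-likelihood test Malat1 came close to the threshold (adjusted p = 0.0947), beside 0.0302 for Snhg11 and 0.0404 for Mir124a-1hg.

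**Figure D2:**
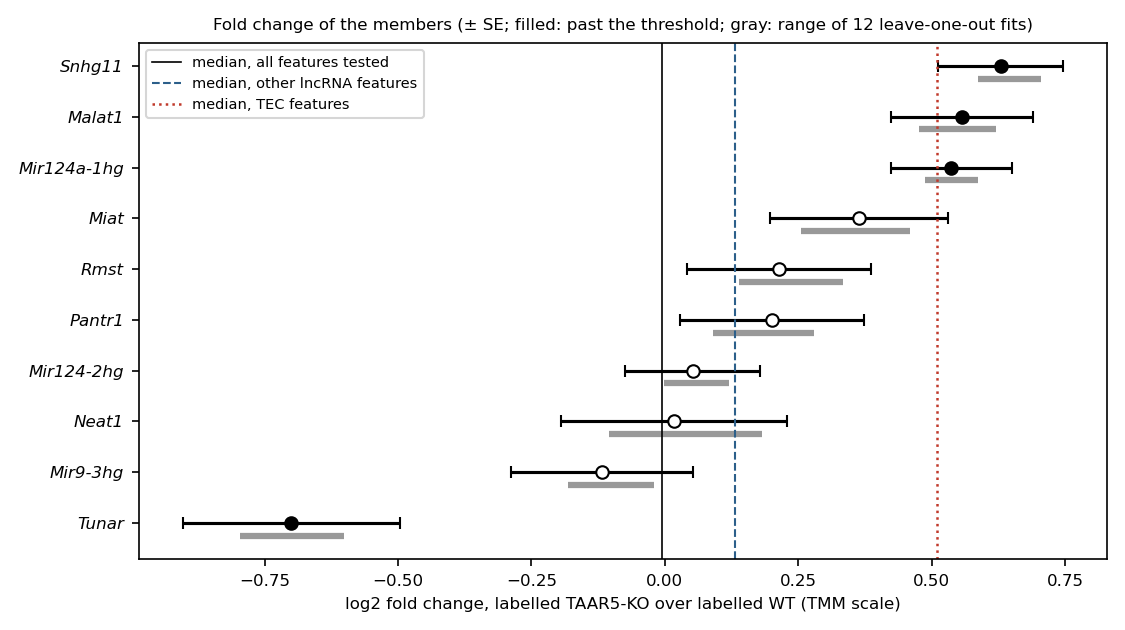
Log2 fold change of the members, label TAAR5-KO over label WT, with SE; filled points passed the threshold and gray bars give the range over the 12 fits that leave out a library. Snhg11 (0.63), Malat1 (0.56) and Mir124a-1hg (0.54) lie highest, near the median of TEC features (0.51, dotted), and Tunar (−0.70) lies lowest.

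Because the libraries differ in their ribosomal RNA share, levels were also compared in sets split at a share of 85%. The share still varied within the lower set, from 64.3% (NK7) to 81.9% (NK4). Its lowest libraries, NK7 and NK12 (65.3%), are both labelled WT, so the share was not balanced between the labels. Where ribosomal RNA took less than 85% (3 libraries labelled TAAR5-KO and 4 labelled WT), Malat1 had a mean of 901 CPM against 636, Snhg11 of 71.3 against 43.5 and Mir124a-1hg of 7.54 against 4.76. The log2 fold changes were 0.51 (SE 0.17), 0.72 (SE 0.14) and 0.68 (SE 0.14). Where it took 85% or more (3 against 2), the means were 1007 against 672 CPM for Malat1, 66.7 against 47.1 for Snhg11 and 6.30 against 5.20 for Mir124a-1hg. These log2 fold changes were 0.54 (SE 0.14), 0.46 (SE 0.15) and 0.23 (SE 0.20). Tunar was lower in both sets, at 1.30 against 1.85 CPM and 0.966 against 1.88, and was called in neither. For Malat1, Snhg11 and Mir124a-1hg the direction in any set of these libraries follows from ranges that do not overlap, so only the sizes are informative. The direction of Tunar was nearly as fixed, since its labels meet only at NK4 and NK8. Neat1 had log2 fold changes of 0.33 (SE 0.24) and −0.47 (SE 0.22), Miat of 0.62 (SE 0.19) and −0.24 (SE 0.24), and Rmst of 0.44 (SE 0.18) and −0.29 (SE 0.34). Mir124-2hg and Mir9-3hg changed the other way, from lower to higher. Mir124-2hg had means of 5.54 against 5.94 CPM under 85% and 6.53 against 5.08 at 85% or more. Those of Mir9-3hg were 1.65 against 1.93 and 1.91 against 1.60. Pantr1 was higher in both sets.

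**Figure D3:**
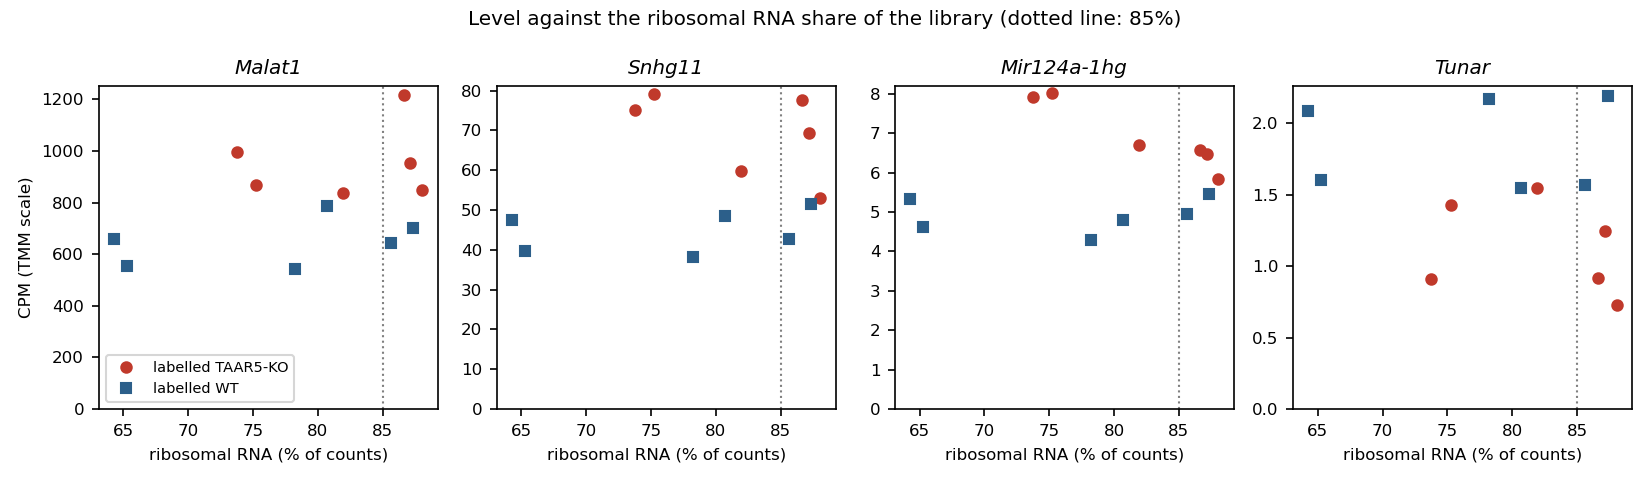
CPM on the TMM scale of the 4 members that passed the threshold, against the share of counts on ribosomal RNA in each library; the dotted line is at 85%. Red circles are libraries labelled TAAR5-KO and blue squares those labelled WT. The separation of the labels for Malat1, Snhg11 and Mir124a-1hg is that of their ranges over all 12 libraries, and for Snhg11 the labels come closest at NK3 (52.9 CPM) and NK9 (51.5 CPM).

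Between genes, levels are compared per length, in CPM per kb of exon over all 12 libraries. Malat1 had the highest level (115 ± 28.1 CPM per kb; SD, n = 12), then Snhg11 (6.67 ± 1.76) and Mir124a-1hg (1.18 ± 0.246). The ranges of these 3 did not overlap. Mir124-2hg followed at 0.908 ± 0.130 CPM per kb, with a range that overlapped that of Mir124a-1hg and lay above that of Pantr1 (0.442 ± 0.0986). Below Pantr1 each neighbour overlapped the next: Mir9-3hg (0.335), Miat (0.317), Neat1 (0.309), Rmst (0.259) and Tunar (0.243 ± 0.0794).

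Promoter sequences from RefSeq (GRCm38.p6, another build than the counts) matched 5 of the 10 members. Those of Malat1 and Snhg11, the most abundant members that passed the threshold, are shown, with the 50 bases from the start site in capitals.
Malat1, chr19:5802623-5802922, minus strand: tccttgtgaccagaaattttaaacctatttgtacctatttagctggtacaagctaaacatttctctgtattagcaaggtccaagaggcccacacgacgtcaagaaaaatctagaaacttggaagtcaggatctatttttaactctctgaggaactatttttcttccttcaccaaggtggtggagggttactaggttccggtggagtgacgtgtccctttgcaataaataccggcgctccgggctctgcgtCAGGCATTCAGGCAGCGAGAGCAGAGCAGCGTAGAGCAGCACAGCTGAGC
Snhg11, chr2:158375463-158375762, plus strand: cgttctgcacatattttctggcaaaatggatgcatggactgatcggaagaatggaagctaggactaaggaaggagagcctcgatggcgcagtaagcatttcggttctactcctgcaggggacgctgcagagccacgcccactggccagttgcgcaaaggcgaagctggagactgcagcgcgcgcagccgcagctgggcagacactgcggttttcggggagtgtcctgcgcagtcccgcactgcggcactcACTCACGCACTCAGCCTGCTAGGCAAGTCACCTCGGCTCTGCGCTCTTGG
The Malat1 promoter held 10 CG dinucleotides and that of Snhg11 held 21, against a median of 7 over 32851 promoters of the same length. On either strand neither held a TATA box (TATAAA, in 13.6% of all promoters), a cAMP response element (TGACGTCA, 1.79%), a GC box (GGGCGG, 35.7%), an E-box (CACGTG, 7.15%) or the left part of the RE1 element (TTCAGCACC, 0.371%). A promoter of Mir9-3hg held a cAMP response element, and the promoters of Tunar, Mir9-3hg and Miat held GC boxes.

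Covariation among the members was uneven. Over the 12 libraries, with the mean of each label removed, the 45 pairs of members had a median Pearson's r of 0.19 on log2 CPM, from −0.62 (Mir9-3hg with Tunar) to 0.79 (Snhg11 with Mir124a-1hg). The highest pair had r = 0.79 and Spearman's rho of 0.78 (permutation p = 0.0078 and 0.0085, adjusted p = 0.212 and 0.253). Its r was 0.60 without the 2 libraries farthest from the median of Snhg11. Malat1 and Snhg11 had r = 0.71 (rho 0.72, permutation p = 0.0141 and 0.0112, adjusted p = 0.212 and 0.253). Without the 2 libraries farthest from the median of Malat1, their r was 0.74. Rmst, which was not called, had r = 0.74 with Mir124a-1hg (rho 0.71, permutation p = 0.0119 and 0.022, adjusted p = 0.212 and 0.33). Without the 2 libraries farthest from the median of Rmst, that r was 0.51. No pair had an adjusted p under 0.05 over the 45. The scale sets these values: on CPM outside ribosomal RNA, counts of which Lars2 held an uneven part, the median r was 0.76. Neat1 and Malat1, neighbours on chromosome 19, had r = 0.28.

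**Figure D4:**
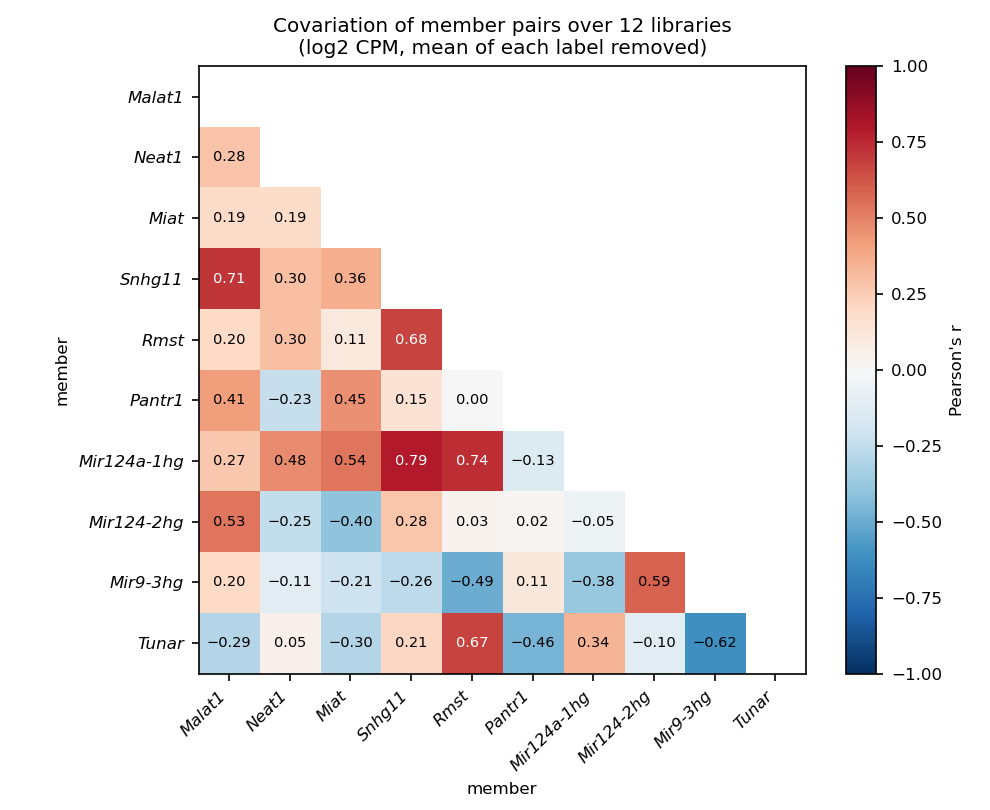
Pearson's r of each pair of members over the 12 libraries, on log2 CPM of the TMM scale with the mean of each label removed. Snhg11 with Mir124a-1hg (0.79), Rmst with Mir124a-1hg (0.74) and Malat1 with Snhg11 (0.71) are among the darkest red cells, and Mir9-3hg with Tunar (−0.62) is the darkest blue.

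Of 13901 other features, those most like Malat1 over the 12 libraries were Arglu1 and Luc7l2 (both r = 0.94), which code for proteins that act in splicing. Snhg11 was most like Meg3 (r = 0.97), an imprinted long non-coding RNA, and Nit2 (r = 0.92). Neat1 was most like Angptl2 and Stom (both r = 0.91), and Mir124a-1hg like Gm21092 (r = 0.90) and Gm5148 (r = 0.89). These are the extremes of many correlations and are given as a description.

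Genes of the same pathways were taken from lists that were drawn up with earlier results of these data known. Of 16 paraspeckle proteins, the partners of Neat1, the likelihood ratio test and the quasi-likelihood test of edgeR called 0 and DESeq2 called 1 (Matr3), while 2 had an unadjusted p under 0.05. The median over these proteins was 0.08 on the log2 scale, beside −0.01 for all features tested. Matr3, a nuclear matrix protein, was at 39.8 ± 2.87 CPM (SD, n = 6) against 34.4 ± 1.41 (edgeR adjusted p = 0.247), and Hnrnpk at 32.5 ± 1.18 against 30.8 ± 1.70 (edgeR adjusted p = 0.752). Of 10 proteins of nuclear speckles or of Malat1 binding and processing, both edgeR tests called 0, with 1 unadjusted p under 0.05 and a median of 0.10, and DESeq2 called 0 of the 9 with an adjusted p. The speckle proteins Son (58.7 ± 3.02 against 52.5 ± 2.73 CPM; SD, n = 6) and Srrm2 (65.3 ± 7.92 against 64.0 ± 6.02) were the most abundant. The partners of Malat1 and Neat1 were thus without a call in the likelihood ratio test.

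Of 13 proteins that process microRNAs or silence their targets, both edgeR tests called 0, with 3 unadjusted p under 0.05 and a median log2 fold change of 0.04, and DESeq2 called 0 of the 10 with an adjusted p. Ago2, which holds the microRNA on its target, was at 24.3 ± 1.10 CPM (SD, n = 6) against 23.6 ± 1.55, and Tnrc6b, its silencing partner, at 27.1 ± 1.77 against 25.5 ± 1.40. Of 18 described targets of miR-124 and miR-9, both edgeR tests called 0, with 0 unadjusted p under 0.05, 12 values below 0 and a median of −0.04. DESeq2 called 0 of the 10 with an adjusted p. Among these, Map1b was at 327 ± 47.5 CPM against 327 ± 27.3 and Stmn1 at 15.9 ± 3.79 against 17.1 ± 2.55 (SD, n = 6).

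Of the 18 other small nucleolar RNA host genes, 10 passed the filter, and both edgeR tests called 0 of them, with 1 unadjusted p under 0.05. DESeq2 gave an adjusted p for Gas5 only and did not call it. Gas5, the most abundant, was at 12.4 ± 1.28 CPM against 12.9 ± 1.72 (SD, n = 6), and Snhg8 at 0.982 ± 0.295 against 1.04 ± 0.390. Snhg11 thus stood at 0.63 on the log2 scale beside other hosts between −0.48 and 0.24, a difference that was not tested. Of 8 partner proteins and neighbours of the neuronal members, both edgeR tests called 0 and DESeq2 called 1, with 1 unadjusted p under 0.05. That gene was Qk (listed as Qki), a partner of Miat, at 150 ± 5.14 CPM against 174 ± 4.79 (SD, n = 6; edgeR adjusted p = 0.194). Ncl was at 64.2 ± 6.86 CPM against 62.7 ± 6.22.

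Further calls fell among other named long non-coding RNAs. Of 17 tested, the likelihood ratio test called 5, all higher in libraries labelled TAAR5-KO, with a median log2 fold change of 0.29. The quasi-likelihood test called 4 and DESeq2 called 6 of the 13 with an adjusted p. Mirg, at the imprinted locus of Meg3, had 3.73 ± 0.305 CPM (SD, n = 6) against 2.45 ± 0.274 (edgeR adjusted p = 0.000338). Ftx, which lies near Xist, had 4.85 ± 0.889 against 3.04 ± 0.264 (edgeR adjusted p = 0.000338). Meg3 had 159 ± 35.4 CPM against 97.2 ± 18.0 (edgeR adjusted p = 0.00289), and Dleu2, a microRNA host, 4.14 ± 0.468 against 2.86 ± 0.297 (edgeR adjusted p = 0.00798). The fifth was Kcnq1ot1, named after its value was seen, which the quasi-likelihood test did not call (adjusted p = 0.122 in edgeR). Rian, at the locus of Meg3, had 125 ± 15.3 CPM against 98.9 ± 11.2 (edgeR adjusted p = 0.103), and DESeq2 called it (adjusted p = 0.0381).

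**Figure D5:**
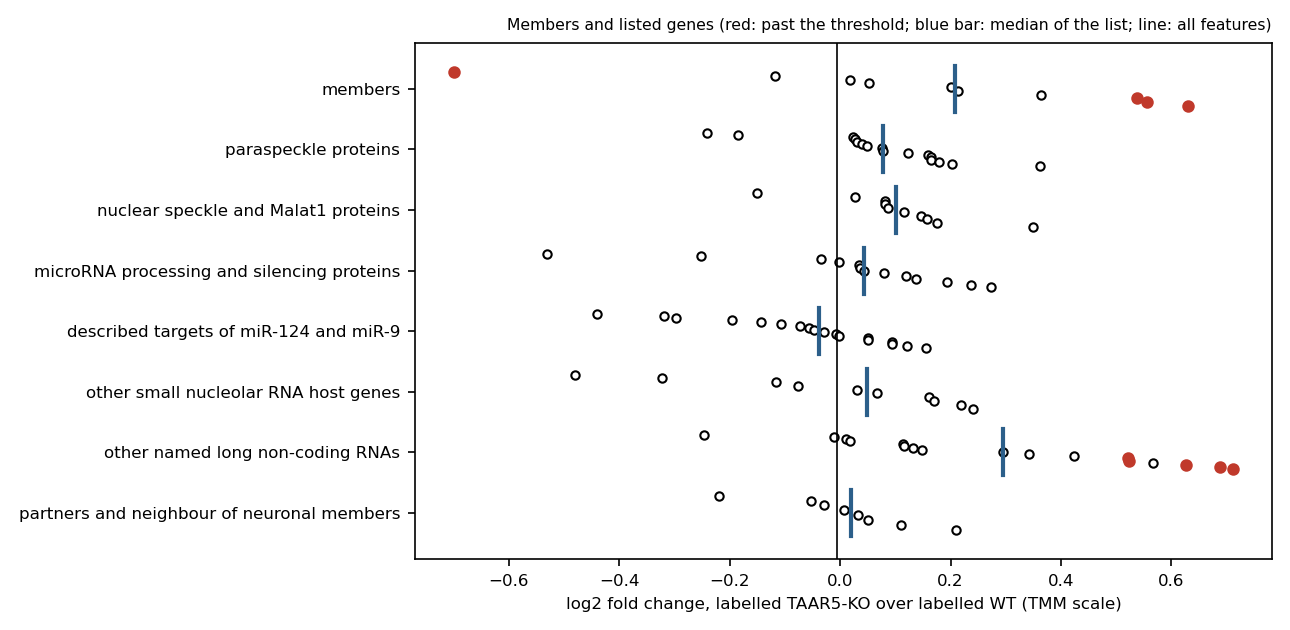
Log2 fold change of the members and of the listed genes, label TAAR5-KO over label WT; each point is a gene, red points passed the threshold, blue bars are medians and the line is the median of all features (−0.01). Called genes appear among the members and in the list of other named long non-coding RNAs (median 0.29).

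Among other features of the lncRNA class, more were called higher than lower. Of 695 features of the class other than members, 27 were called higher (3.88%) and 3 lower (0.432%), with a median log2 fold change of 0.13. Of 478 features of the TEC class, transcribed regions that GENCODE lists for experimental follow-up, 30 were called higher and 0 lower by the likelihood ratio test, 421 had a value above 0 and the median was 0.51. The quasi-likelihood test called 5 of them, and DESeq2 called 5 of the 15 with an adjusted p. Protein-coding features had a median of −0.02, with 71 called higher and 89 lower of 12604. The TEC share of the counts outside ribosomal RNA was 0.317% ± 0.0711 against 0.280% ± 0.0232 (SD, n = 6; exact permutation p = 0.275), and its part in the result of the members was not tested.

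Marker lists of astrocytes and microglia were lower in libraries labelled TAAR5-KO. The mean log2 CPM of 8 astrocyte markers was lower by 0.31 (5.02 ± 0.186 against 5.32 ± 0.0853; SD, n = 6; two-sided exact permutation p = 0.00216, the smallest it can give, adjusted p = 0.0411 over 19 measures), with ranges of 4.78 to 5.22 and 5.24 to 5.43 and 8 of 8 log2 fold changes below 0. That of 8 microglia markers was lower by 0.32 (1.63 ± 0.188 against 1.95 ± 0.175; exact permutation p = 0.00433, adjusted p = 0.0411), with ranges of 1.31 to 1.85 and 1.74 to 2.26 and again 8 of 8 below 0. Spiny neuron markers were at 4.86 ± 0.156 against 4.55 ± 0.349 (exact permutation p = 0.0303, adjusted p = 0.192), with 9 of 9 log2 fold changes above 0. Mature oligodendrocyte markers were at 4.61 ± 0.138 against 4.78 ± 0.102 (exact permutation p = 0.0433, adjusted p = 0.206), with 7 of 8 log2 fold changes below 0. Pan-neuronal markers were at 5.78 ± 0.187 against 5.85 ± 0.119 (exact permutation, adjusted p = 0.708). The part of these markers in the result of the members was not tested.

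Over the libraries, with the mean of each label removed, 60 relations between the members and library or cell type measures were computed, and the lowest adjusted p was 0.465. The smallest p was that of Neat1 with the TEC share, with r = 0.67 and rho 0.73 (permutation p = 0.0135 and 0.0166, adjusted p = 0.465 and 0.628), and r = 0.76 without the 2 farthest libraries. Mir124a-1hg had r = 0.66 with the TEC share (rho 0.70, permutation p = 0.0547 and 0.0344, adjusted p = 0.827 and 0.628), and r = 0.58 without those libraries. On this scale no relation passed the correction. Neat1 also had r = −0.70 (rho −0.65, permutation p = 0.016 and 0.038, adjusted p = 0.465 and 0.628) with the pan-neuronal list, and r = −0.58 without the 2 libraries farthest in that list. On CPM outside ribosomal RNA the same relations ran from r = −0.88 (Mir124-2hg with the ribosomal RNA share) to 0.91 (Snhg11 with the TEC share), so they depend on the scale.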

How the data were processed

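Striatal RNA of 6 TAAR5-KO and 6 WT mice was sequenced as directional single-end libraries after depletion of ribosomal RNA. The authors used cutadapt 4.1 for trimming and STAR 2.7.11b for alignment to GRCm39, and deposited whole-number counts per GENCODE M35 gene from featureCounts 2.0.6, without normalization. The strand setting and the treatment of multi-mapping reads are not given in the sources used here. The table's other 12 count columns were left out.

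Features that reached 0.5 CPM in 3 or more libraries were tested in edgeR 4.0.16 (R 4.3.3) with TMM factors, glmFit and glmLRT, without covariates, with calls where the adjusted p (Benjamini–Hochberg) was under 0.1. The likelihood ratio test, the CPM and library minimums and the threshold are those of the study's methods, which do not name TMM or the library sizes behind CPM. With the CPM filter on TMM library sizes, 13053 features were tested, the number that the study gives, against 13902 in the main fit. The study reported fewer calls than the main fit, and more of them lower than higher in TAAR5-KO. The main fit called 133 higher and 96 lower. The quasi-likelihood test, DESeq2 1.42.0, other scalings, filters and trends, and each library left out were alternatives. The script was tested on simulated data. There 29 of 174 calls by the likelihood ratio test were false (16.7%), against 11.7% by the quasi-likelihood test and 12.3% by DESeq2. The likelihood ratio test recovered 41.5% of the features set to a log2 fold change of 0.5, 87.5% at 1 and 100% at 2. Log2 CPM had a prior count of 2. Measures that give a single value for each library were compared by two-sided exact permutation, and correlations by 100000 permutations. Libraries of a label differed by more than sampling noise. P-values measure the spread between libraries, and Benjamini–Hochberg adjustment was used for correlations and measures too.

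The members, lists and tests were chosen with earlier results of these data known. Named were the members, Taar5, up to 4 called genes of each list with the smallest adjusted p (where fewer than 2 were called, also the 2 with the highest CPM), the 2 features most like 4 members, hosted genes and spiny neuron markers. Biotypes came from GENCODE M39, a later release.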

Additional observations from a re-analysis of the deposited data

How the results depend on the processing

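No paired analysis was possible because the columns carry no number that ties them to an animal or pairs them across labels. The main test called 229 of 13902 features tested. The count was 108 at an adjusted p under 0.05, 63 with the quasi-likelihood test and 7 with library size as the only scaling. It was 86 with the GC content trend removed and 98 with the ribosomal RNA share as covariate, all of the same 13902. With no filter beyond 1 count, 93 of 43668 features were called. When a library was left out, the count ran from 85 of 13793 (without NK11) to 414 of 13829 (without NK4). In sets of libraries chosen after seeing the data, it was 80 of 13873 where ribosomal RNA took under 85% of counts. Where ribosomal RNA took 85% or more, it was 640 of 9828, so the share over all features differed between these sets. For the members, 4 were called in the main test, 3 to 4 when a library was left out, 0 with library size as the only scaling (log2 fold changes of 0.08 for Malat1, 0.22 for Snhg11, 0.11 for Mir124a-1hg and −1.14 for Tunar, with an SE of 0.54 or more) and 2 in each of those sets. Malat1 lost its call under 85%, Mir124a-1hg at 85% or more and Tunar in both, with fewer libraries in each fit. Of listed genes 5 were called, against 8 with DESeq2, 0 with library size as the only scaling, 3 under 85% and 4 to 8 (without NK9) with a library left out. The mean CPM was higher in libraries labelled TAAR5-KO for 7 members on the TMM scale and for 3 on CPM of the total count. The median r of member pairs was 0.19, against 0.76 on CPM outside ribosomal RNA and 0.0295 (without NK3) to 0.22 with a library left out. The causes were not tested. Depth limits Tunar most: 3 counts, the limit read from a count of 0, equal 0.0678 to 0.361 CPM.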
